A study of Rattus norvegicus with 20 samples.

Results

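Proteasome subunit genes were defined by name, as the genes whose rat symbol begins with Psma, Psmb, Psmc, Psmd or Psme followed by a number, without the inducible core subunit genes Psmb8, Psmb9 and Psmb10. The rule took 38 of the 13337 genes named on the arrays, of which 16 belong to the core (Psma, Psmb) and 22 to the regulatory particles (Psmc, Psmd, Psme). Each was read by 1 probe. A gene was tested when its signal exceeded 200 on at least 5 of the 20 arrays, which left 6102 genes and 35 of the 38 members (14 core and 21 regulatory). Psma8 and Psmb11, the subunits of the testis and thymus forms of the core, did not exceed 200 on any array. Psmc3ip exceeded it on 1 EPF array only, and it entered through its symbol, since it encodes a meiotic recombination factor and no subunit. Psmd10, Psmd14 and Psme3 were not analysed here.

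The lesions arose under the Resistant-Hepatocyte (R-H) protocol. Male Fischer rats received diethylnitrosamine (DENA) once, and later 2-acetylaminofluorene (2-AAF) in the diet combined with partial hepatectomy (PH). Laser-microdissected tissue was hybridised to Illumina RatRef-12 arrays, 5 for each of 4 groups. Early preneoplastic foci (EPFs) were taken 1 week after PH and 4 weeks after DENA, each array holding a pool of foci. Preneoplastic nodules were taken 10 weeks after DENA, 1 nodule to an array, and were split into CK-19-positive and CK-19-negative by staining for cytokeratin-19, a keratin of bile duct cells. Control arrays held random areas of liver, labelled as hepatocytes. The sources describe these areas once as normal liver and once as liver of rats given the R-H protocol, so what the controls had received is not settled. RNA came from 4 to 5 animals, and which rat gave which array is not labelled. Some arrays of a group may therefore share a rat, in which case the p-values below are too small. EPF arrays were alone on their chip, so chip, recent 2-AAF and recent PH cannot be told apart from the lesion in every comparison with EPFs.

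The proteasome is the protease that degrades proteins tagged with ubiquitin. Its core is a barrel of stacked rings, in which alpha subunits form the gates and beta subunits carry the proteolytic sites. Regulatory particles dock on the ends of the barrel, where a ring of ATPases unfolds the substrate, a lid removes its ubiquitin, and other caps, the Psme proteins, open the gate without ubiquitin. In the mouse, the transcription factor NRF2, itself a proteasome substrate held in check by KEAP1, can raise several subunit genes, and interferons raise the inducible core subunits and the activators Psme1 and Psme2.

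More subunit genes were called in EPFs than in either kind of nodule, an order that all genes tested also showed. In EPFs 14 of the 35 tested members were higher and 3 lower than in control liver (limma, Benjamini-Hochberg adjusted p under 0.05 over 6102 genes), while among all genes tested 28.3% were called higher and 27.7% lower. The members' median log2 difference was 0.16, against -0.02 for all genes tested. In CK-19-positive nodules 7 members were higher and 2 lower than in control liver, with 23.4% and 22.6% of all genes called. With the array's chip as a fixed block in limma, 1 member was higher and 6 were lower in these nodules, and within chip 1, which held all 5 of them and 2 controls, 2 were higher and 4 lower. Of all genes tested, 18.2% were called each way with the block, and 18.7% higher and 18.3% lower within chip 1. In CK-19-negative nodules no member was called higher and 1 was lower, with 8.77% and 7.36% of all genes called. There, 1 of the 35 members had an unadjusted p under 0.05 in limma, and the methods' t-test called none in either direction. The lower call did not pass under a fixed chip block or within chip 2, where no member was called. Of all genes, 3.29% were higher and 2.56% lower with the block, and 0.377% and 0.0819% within chip 2. The members' median was -0.02 in the CK-19-positive and -0.01 in the CK-19-negative group.

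No member reached 2-fold together with an adjusted p under 0.05 in any of the 6 comparisons, though Psmd9 was just short of it in CK-19-positive nodules. Against control, the share of all genes that did so was 6.26% higher and 6.15% lower in EPFs, 4.95% and 4.9% in the CK-19-positive group and 1.29% and 0.656% in the CK-19-negative group. Of the 35 members, 12 lay above every control array on all EPF arrays and 2 lay below, which 21.9% and 19.6% of all genes tested did. On the CK-19-positive nodule arrays 1 member (Psme1) lay above and 1 (Psmd9) below every control array, with 16.6% and 14.5% of all genes. On the CK-19-negative nodule arrays none lay above and 1 (Psmd9) below, with 6.21% and 4.28% of all genes.

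**Figure D1:**
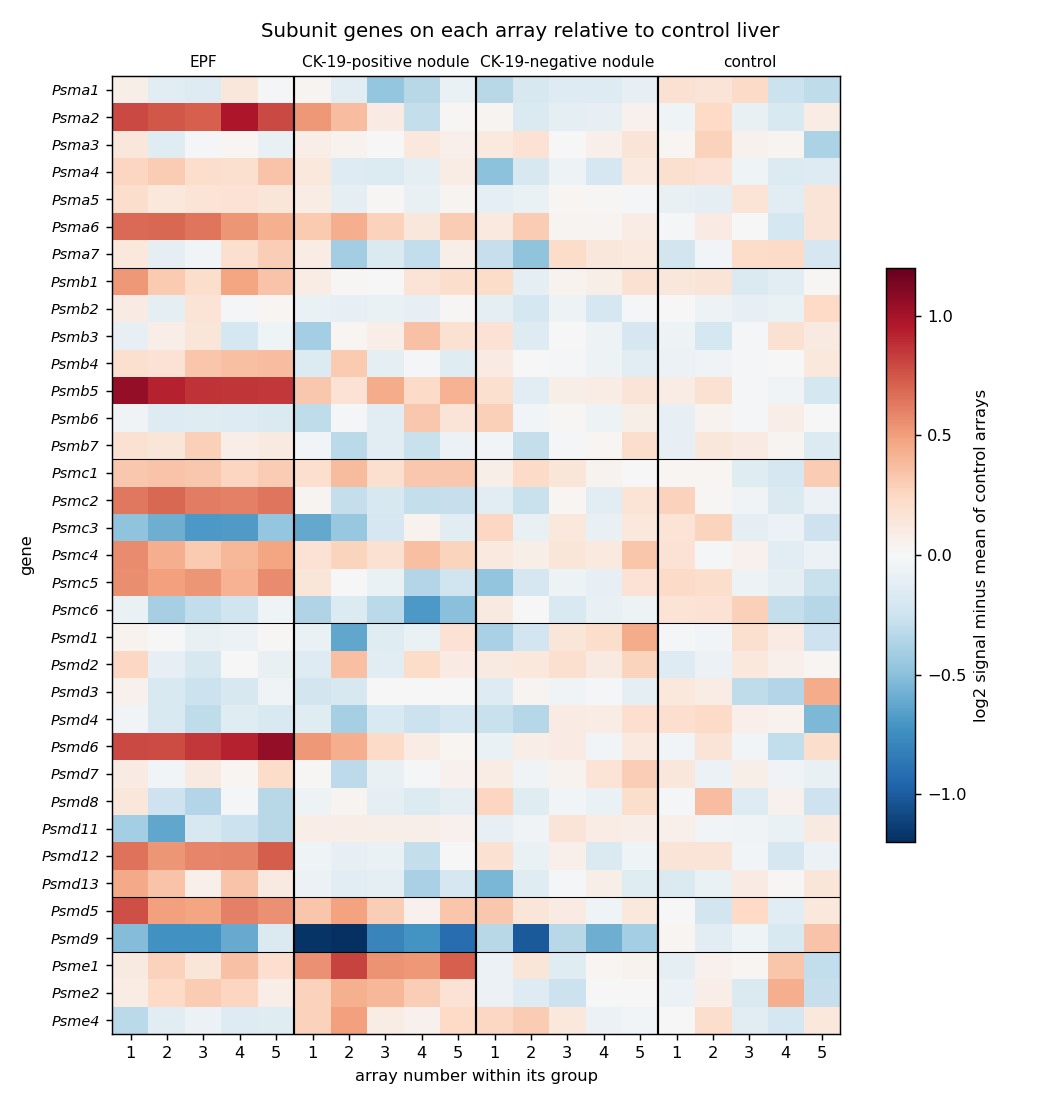
Each row is a tested subunit gene, grouped by its place in the complex, and each column an array, 5 for each group. Colour gives the log2 signal minus the mean of the 5 control arrays, red above and blue below. On all EPF arrays 12 members lay above every control array and 2 below, beside 21.9% and 19.6% of all genes tested. On all CK-19-positive nodule arrays 1 lay above and 1 below, beside 16.6% and 14.5%. On all CK-19-negative nodule arrays none lay above and 1 below, beside 6.21% and 4.28%.

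In EPFs against control 6 of 14 core members were higher and none lower, and 8 of 21 regulatory members were higher and 3 lower, beside 28.3% and 27.7% of all genes tested. By ring, 3 of 7 alpha, 3 of 7 beta and 4 of 6 ATPase subunit genes were higher, as were 3 of 10 non-ATPase subunit genes, a share near that of all genes. The median SD over members on the log2 scale was 0.10 in EPFs, 0.14 in CK-19-positive nodules, 0.13 in CK-19-negative nodules and 0.17 in control liver. EPF arrays held pools of foci and shared a chip, while control arrays lay on chips 1, 2 and 3. The spread of all genes tested is not given here.

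Against control, Psmb5 and Psma2 were called higher in EPFs, Psmd9 lower in all lesions and Psme2 higher in CK-19-positive nodules. The calls of Psme2 there and of Psmd9 in CK-19-negative nodules did not pass under several alternatives. The stretches of 250 bases before the start site that the RefSeq promoter table gives for each gene are printed here because these genes carry the calls described next. They were chosen after the values were seen, and come from RefSeq (rat, GRCr8), all on the minus strand, written in the direction of transcription. They lie at chr15:32047380-32047629 (Psmb5), chr17:55260442-55260691 (Psma2), chr12:39018265-39018514 (Psmd9) and chr15:33052752-33053001 (Psme2). The start used is the end of the annotated gene span for Psmb5 and Psma2, but lies 76 bases inside it for Psmd9 and 304 bases inside it for Psme2, whose whole stretch is thus within the gene span. Capitals mark matches, on either strand, to TGACNNNGC (the antioxidant response element that NRF2 binds), CCAAT (the CCAAT box), GGGCGG (the GC box) and GAAA repeated after any 2 bases (the interferon-stimulated response element).
Psmb5: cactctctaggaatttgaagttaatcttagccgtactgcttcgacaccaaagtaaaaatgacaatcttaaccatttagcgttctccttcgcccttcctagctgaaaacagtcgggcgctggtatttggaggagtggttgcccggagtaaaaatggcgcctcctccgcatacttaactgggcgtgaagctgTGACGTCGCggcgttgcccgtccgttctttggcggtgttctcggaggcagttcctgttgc
Psma2: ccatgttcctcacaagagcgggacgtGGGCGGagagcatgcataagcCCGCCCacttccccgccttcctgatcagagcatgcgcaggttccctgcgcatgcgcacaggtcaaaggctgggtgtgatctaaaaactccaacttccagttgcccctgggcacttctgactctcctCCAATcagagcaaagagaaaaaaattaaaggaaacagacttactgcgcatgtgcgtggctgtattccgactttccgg
Psmd9: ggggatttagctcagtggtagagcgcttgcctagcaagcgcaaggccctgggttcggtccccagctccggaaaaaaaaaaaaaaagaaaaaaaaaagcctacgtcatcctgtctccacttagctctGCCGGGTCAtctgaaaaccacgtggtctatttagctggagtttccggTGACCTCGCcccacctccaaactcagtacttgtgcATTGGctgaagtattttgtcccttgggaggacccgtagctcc
Psme2: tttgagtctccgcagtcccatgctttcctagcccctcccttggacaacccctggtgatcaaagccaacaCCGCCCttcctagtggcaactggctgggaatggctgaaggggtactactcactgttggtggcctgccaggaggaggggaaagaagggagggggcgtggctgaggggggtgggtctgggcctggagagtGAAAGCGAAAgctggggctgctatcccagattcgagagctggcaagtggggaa
Psmb5 holds the antioxidant response letters once, 60 to 52 bases before the start used. Psmd9 holds them at 2 places, 124 to 116 and 77 to 69 bases before the start used, as well as a CCAAT box on the other strand. Psma2 holds a CCAAT box and 2 GC boxes, and Psme2 holds the interferon-stimulated letters 53 to 44 bases before the start used, within the annotated gene, and a GC box.

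Windows were found for 34 of the 38 members, Psma7, Psmb11, Psmd6 and Psmd12 being those not matched. The start used lay inside the annotated gene span in 14 of the 34, and in 6 of these the whole window did. The antioxidant letters stood in 7 of the 34 windows (20.6%), in Psma3, Psmb2, Psmb5, Psmb6, Psmd1, Psmd9 and Psme4, against 10.2% of all 27457 windows and 13.2% of the 5124 windows of tested genes. GC boxes stood in 25 windows (73.5%, against 32.4% of all and 57.9% of tested) and CCAAT boxes in 16 (47.1%, against 34.3% and 36.9%). The interferon-stimulated letters stood in 4 (11.8%, against 3.29% and 2.91%), in Psma4, Psmb3, Psmd7 and Psme2. The window of Psme1, whose higher call in CK-19-positive nodules held under every alternative, had a GC box but not these letters. Of the 7 tested members with the antioxidant letters, 1 was called higher and 1 lower in EPFs against control, and of the 25 without them 11 were higher and 2 lower, where 28.3% and 27.7% of all genes tested were. With and without the CCAAT box, 5 of 15 and 7 of 17 were higher, and 2 and 1 lower. For the GC box these were 7 of 23 and 5 of 9 higher, and 1 and 2 lower. For the interferon-stimulated letters 1 of 4 and 11 of 28 were higher, and none and 3 lower. Whether any motif bears on the calls was not tested. A match is a run of letters and not a shown binding site, and other motifs had been tried before these 4 were kept.

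Among the catalytic subunit genes only Psmb5, which carries the chymotrypsin-like site, was called in EPFs against control. Psmb5 read 9187, 8415, 8089, 8034 and 7964 on the EPF arrays, 5527, 4995, 6023, 5175 and 5926 in CK-19-positive nodules, 5051, 4017, 4635, 4710 and 4915 in the CK-19-negative ones and 4724, 5018, 4369, 4307 and 3815 in control liver. Every EPF array lay above every other array. The EPF mean of 8338 ± 505 was 1.88-fold the control mean of 4446 ± 455 (SD, n = 5 each), a log2 difference of 0.91 ± 0.09 (SE; limma adjusted p = 1.86e-08). CK-19-positive nodules averaged 5529 ± 451, a log2 difference from control of 0.32 (limma adjusted p = 0.00648), but their arrays overlapped control. That call did not pass with chip as a fixed block (0.19, limma adjusted p = 0.212) or within chip 1 (0.18, adjusted p = 0.253).

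Psmb6, the caspase-like subunit, was not called by limma in any comparison, while the methods' t-test called it lower in EPFs than in control (adjusted p over all genes = 0.019) and than in CK-19-negative nodules (0.0456). It read 3040, 2802, 2826, 2808 and 2777 on the EPF arrays, 2536, 3077, 2844, 3921 and 3481 on those of CK-19-positive nodules, 3819, 3051, 3162, 2995 and 3283 on those of CK-19-negative nodules and 2914, 3209, 3079, 3298 and 3140 on the control arrays, and all groups overlapped. The log2 difference between EPFs and control was -0.13, with a 95% interval of -0.34 to 0.08. Psmb7, the trypsin-like subunit, read 3889, 3789, 4181, 3606 and 3679 across the EPF arrays, 3341, 2738, 3140, 2836 and 3254 in the nodules positive for CK-19, 3356, 2808, 3369, 3471 and 3969 in those negative for it and 3187, 3751, 3675, 3511 and 3047 in control liver. EPFs overlapped control (0.16 on the log2 scale, 95% interval -0.04 to 0.36) but lay above every CK-19-positive nodule, by 0.33 (limma adjusted p = 0.00747).

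Among the alpha subunit genes, which build the gated outer rings of the core, Psma2, Psma4 and Psma6 were called higher in EPFs. Psma2 read 5887, 5709, 5603, 6675 and 5903 on the EPF arrays, 4889, 4403, 3650, 2805 and 3433 in CK-19-positive nodules, 3493, 3024, 3173, 3177 and 3537 in the CK-19-negative ones and 3287, 4017, 3206, 2996 and 3633 in control liver. Every EPF array exceeded every other array, and the EPF mean was 1.74-fold that of control (log2 difference 0.80 ± 0.12, SE; limma adjusted p = 6.45e-06). The CK-19-positive nodules spread from 2805 to 4889 and overlapped control. Psma4 read 4503, 4663, 4348, 4307 and 4777 on the EPF arrays, 4120, 3387, 3366, 3461 and 3992 on those of CK-19-positive nodules, 2681, 3298, 3596, 3269 and 4090 on those of CK-19-negative nodules and 4297, 4249, 3633, 3369 and 3377 on the control arrays. EPFs lay above every control array by a narrow margin, with a log2 difference of 0.26 (limma adjusted p = 0.0399) that no longer passed without control arrays 3, 4 or 5 or EPF arrays 1, 2, 3 or 5. Psma6 ranged over 7619 to 9141 in EPFs, 6213 to 7686 in CK-19-positive nodules, 5792 to 6993 in CK-19-negative nodules and 4883 to 6296 in control liver, and differed from control in EPFs (0.59) and CK-19-positive nodules (0.29). Its call in CK-19-positive nodules did not pass with chip as a fixed block or within chip 1. Psma1 read 769, 663, 657, 801 and 723 across the EPF arrays, 747, 664, 529, 579 and 690.3 in the nodules positive for CK-19, 581, 641, 655, 655 and 682 in those negative for it and 829.8, 812, 854, 612 and 589.8 in control liver, without a call anywhere.

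Psmb1 and Psmb4, beta subunits without a proteolytic site, also rose in EPFs, with log2 differences from control of 0.37 and 0.29 and no overlap with the control arrays. The remaining tested core members, Psma3, Psma5, Psma7, Psmb2 and Psmb3, differed from control by -0.03 to 0.16 in EPFs and none was called there.

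The ATPase genes, whose products form the ring that unfolds the substrate, split in EPFs. Psmc2 read 3804, 3950, 3745, 3735 and 3815 on the EPF arrays, 2506, 2015, 2139, 2015 and 2017 in CK-19-positive nodules, 2224, 2039, 2483, 2252 and 2752 in the CK-19-negative ones and 2962, 2477, 2378, 2169 and 2336 in control liver. The EPF arrays formed a tight cluster above all others, 1.55-fold the control mean (0.64 ± 0.10 on the log2 scale, SE; limma adjusted p = 7.79e-06). Psmc4 read 4797, 4375, 4023, 4269 and 4480 on the EPF arrays, 3641, 3889, 3670, 4157 and 3889 on those of CK-19-positive nodules, 3507, 3387, 3583, 3507 and 4064 on those of CK-19-negative nodules and 3641, 3198, 3348, 2935 and 3070 on the control arrays. EPFs lay above every control array (0.44, limma adjusted p = 9.24e-05), CK-19-positive nodules reached down to the highest control array (0.25, adjusted p = 0.015), and the CK-19-negative nodules were not called (0.16). The call in CK-19-positive nodules did not pass with chip as a fixed block (0.14, limma adjusted p = 0.313) or within chip 1 (0.17, adjusted p = 0.25). Psmc5 rose by 0.51 in EPFs without overlap, and Psmc1 by 0.31 with overlap.

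Psmc3, another ATPase of the same ring, went the other way. It read 696, 646, 603, 607 and 702 across the EPF arrays, 634, 709.5, 847, 1003 and 885 in the nodules positive for CK-19, 1158, 916, 1060, 915 and 1062 in those negative for it and 1086, 1171, 899, 926 and 819 in control liver. Every EPF array was below every control array and every CK-19-negative nodule, by -0.58 ± 0.12 from control on the log2 scale (SE; limma adjusted p = 0.000292). The CK-19-positive nodules spread between and were not called against control (-0.27, adjusted p = 0.0693). They were called lower with chip as a fixed block (-0.44, limma adjusted p = 0.0343), within chip 1 (-0.49, adjusted p = 0.0481), without control array 5 and without nodule 4. Psmc6, a dim probe, read 266, 212, 228, 237 and 270.0 on the EPF arrays, 218, 250.2, 223, 174 and 198 in CK-19-positive nodules, 301, 281, 248, 264 and 269 in the CK-19-negative ones and 315, 316, 342, 229.5 and 221 in control liver. It was called lower in CK-19-positive nodules than in control (-0.41, limma adjusted p = 0.00942), where 2 of 5 nodule arrays lay within the control range and 2 were under 200. The methods' t-test did not call it.

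**Figure D2:**
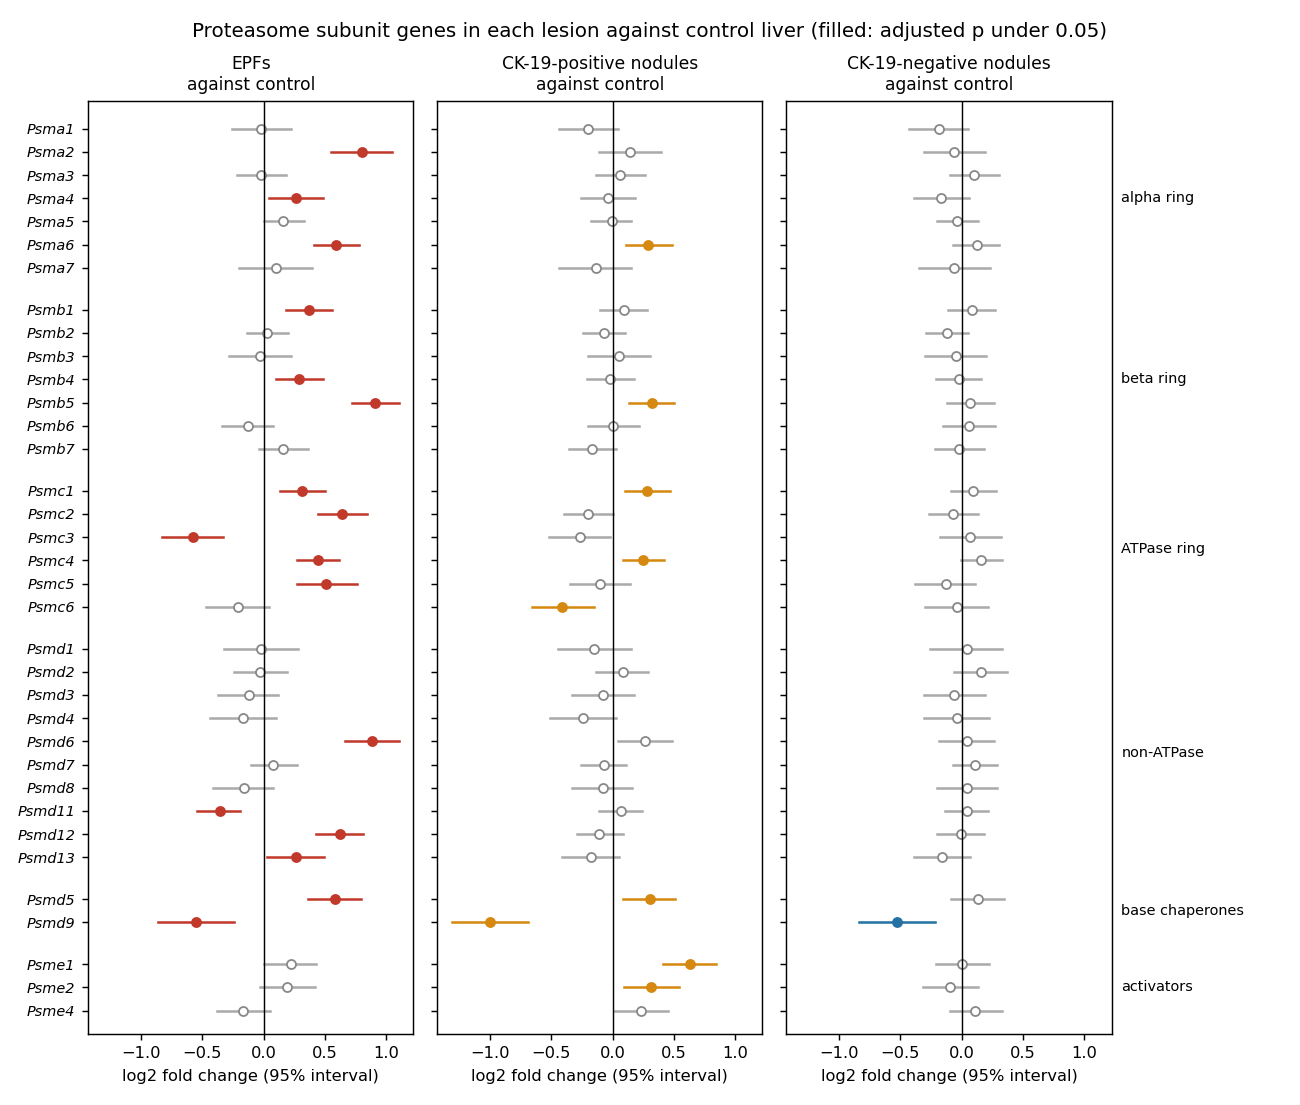
Points give the log2 fold change of each tested subunit gene for EPFs and for either kind of nodule, each against control liver, and bars give the 95% interval from limma. Filled points have an adjusted p under 0.05, which 17 members reached in EPFs, 9 in the CK-19-positive and 1 in the CK-19-negative nodules.

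The non-ATPase genes encode the lid and the scaffold of the regulatory particle. Psmd6, a lid subunit, read 5075, 5037, 5286, 5580 and 6103 on the EPF arrays, 4212, 3969, 3433, 3117 and 2983 on those of CK-19-positive nodules, 2770, 3111, 3134, 2867 and 3180 on those of CK-19-negative nodules and 2863, 3269, 2870, 2395 and 3387 on the control arrays. EPFs stood above all other arrays, 1.84-fold control (0.88 ± 0.11, SE; limma adjusted p = 3.96e-07). Psmd12, also of the lid, read 3180, 2914, 3047, 3065 and 3348 across the EPF arrays, 1952, 1885, 1910, 1658 and 2027 in the nodules positive for CK-19, 2299, 1919, 2109, 1793 and 1958 in those negative for it and 2248, 2254, 1973, 1760 and 1933 in control liver. It too stood apart in EPFs (1.53-fold, limma adjusted p = 4.95e-06), and Psmd13, another lid gene, was higher there by 0.26 with an adjusted p of 0.0499 in limma that passed the threshold narrowly.

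Psmd11, a lid subunit as well, was lower in EPFs. It read 5160, 4450, 6012, 5735 and 5443 on the EPF arrays, 7248, 7263, 7200, 7182 and 7092 in CK-19-positive nodules, 6414, 6662, 7619, 7308 and 7248 in the CK-19-negative ones and 7141, 6705, 6641, 6469 and 7370 in control liver. All EPF arrays were below all others, 1.29-fold lower than control (-0.36 ± 0.08, SE; limma adjusted p = 0.00091). Psmd2, a scaffold subunit of the particle's base, read 1142, 896, 838, 961 and 902 on the EPF arrays, 864, 1230, 876, 1120 and 1027 on those of CK-19-positive nodules, 1035, 1049, 1096, 1032 and 1156 on those of CK-19-negative nodules and 864, 917, 1049, 1004 and 979 on the control arrays, with no call in any comparison. Psmd1, Psmd3, Psmd4, Psmd7 and Psmd8 were not called against control in any lesion.

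**Figure D3:**
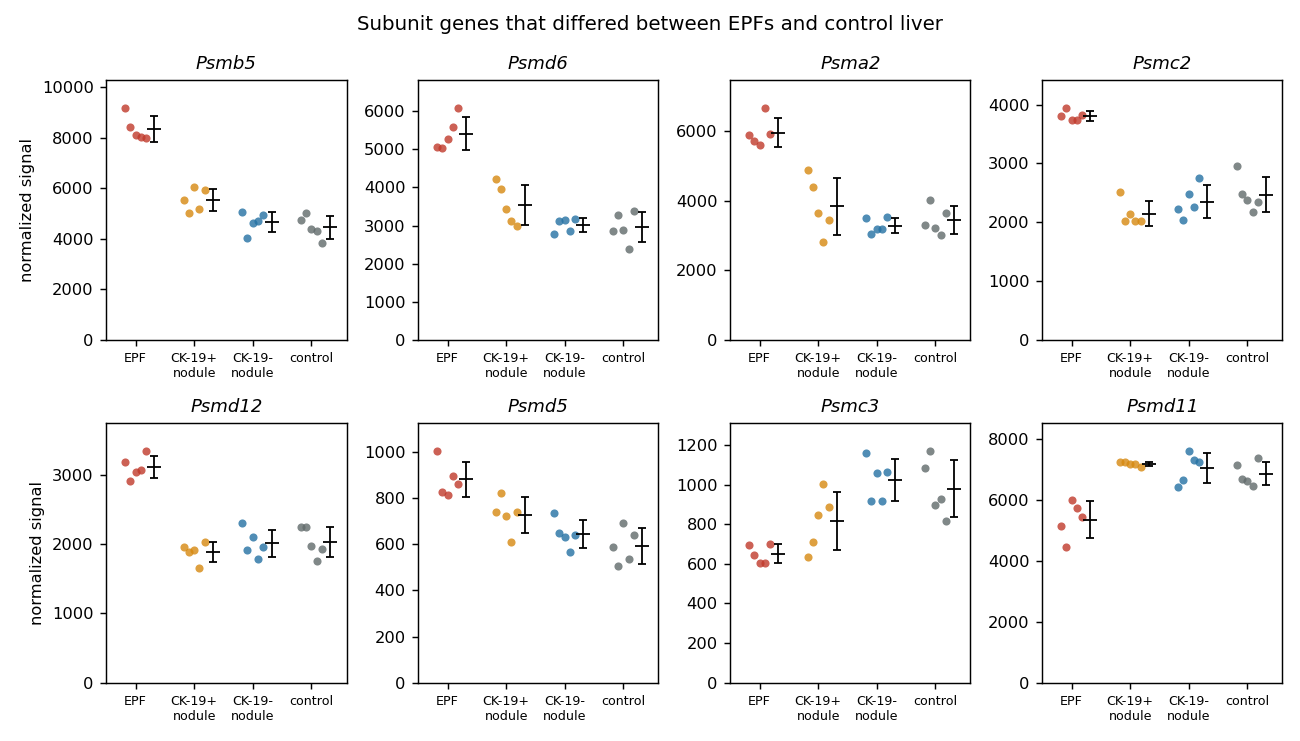
Each point is an array, plotted as normalized signal on a linear axis from 0, and the bar beside each group gives its mean and SD (n = 5). In Psmb5, Psmd6, Psma2, Psmc2 and Psmd12 the EPF points lie above all others, and in Psmd11 below all others.

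Psmd5 and Psmd9 encode chaperones that help assemble the ATPase base and leave it when the particle is complete. Psmd5 read 1004, 826, 814, 896 and 860.2 across the EPF arrays, 739.7, 822, 720.4, 609 and 739 in the nodules positive for CK-19, 735, 650.2, 631, 566 and 640.3 in those negative for it and 587, 503, 692, 536 and 641 in control liver. EPFs were above every control array (1.49-fold, limma adjusted p = 5.46e-05), and CK-19-positive nodules overlapped control with a smaller difference (0.30 on the log2 scale, adjusted p = 0.021). This call did not pass with chip as a fixed block (limma adjusted p = 0.0554), by the methods' t-test, or without control array 2 or 4 or nodule 2. Psmd9 read 1041, 904, 904, 979.8 and 1320 on the EPF arrays, 658, 569.6, 863, 909 and 789 in CK-19-positive nodules, 1187, 743, 1187, 996 and 1126 in the CK-19-negative ones and 1513, 1362, 1440, 1318 and 1891 in control liver. It was the member called in all 3 lesions against control, and all nodule arrays of both kinds were below all control arrays. It was 2.00-fold lower in CK-19-positive nodules (95% interval of the log2 difference -1.31 to -0.69; limma adjusted p = 9.10e-06), 1.46-fold in EPFs (adjusted p = 0.00339) and 1.45-fold in CK-19-negative nodules (adjusted p = 0.0175). On chip 1, which held every CK-19-positive nodule and 2 controls, its log2 difference from control was -0.94 (limma adjusted p = 0.00278). Among CK-19-negative nodules the call did not pass without nodule 2 (adjusted p = 0.0533), with chip as a fixed block (0.254) and within chip 2 (0.644). The 3 comparisons share the control arrays.

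The activator genes Psme1 and Psme2 were called higher than in control in CK-19-positive nodules. Psme1, a subunit of the cap that opens the core without ATP, read 11451, 12937, 11790, 13585 and 12234 on the EPF arrays, 15542, 18737, 15452, 15232 and 17493 on those of CK-19-positive nodules, 10141, 11790, 9658, 10852 and 10994 on those of CK-19-negative nodules and 9816, 11025, 10852, 13431 and 8693 on the control arrays. The CK-19-positive nodules lay above all other arrays, 1.54-fold control (0.63 ± 0.10, SE; limma adjusted p = 3.05e-05) and 1.54-fold the CK-19-negative nodules (adjusted p = 8.00e-05). The difference from control was 0.66 within chip 1 (adjusted p = 0.00249). The difference from CK-19-negative nodules was 0.58 there, against the only such nodule on that chip, with an adjusted p of 0.0561 in limma.

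Psme2, the partner of Psme1 in the same cap, read 1457, 1619, 1688, 1641 and 1442 across the EPF arrays, 1661, 1837, 1802, 1677 and 1542 in the nodules positive for CK-19, 1305, 1228, 1147, 1360 and 1371 in those negative for it and 1303, 1449, 1217, 1853 and 1127 in control liver. CK-19-positive nodules lay above every CK-19-negative nodule (0.41, limma adjusted p = 0.00641), but control array 4 was the brightest of all. Against control the log2 difference was 0.31 (adjusted p = 0.0219), and it no longer passed without control array 3 or 5 or nodule 2. It also did not pass within chip 1 (limma adjusted p = 0.0581) or with chip as a fixed block (0.32, limma adjusted p = 0.103). The same held by the methods' t-test (adjusted p = 0.095) and with only these 2 groups in the fit (limma adjusted p = 0.0621). Psme4, the subunit of a large cap known for its role in spermatogenesis in the mouse, read 2272, 2593, 2714, 2552 and 2575 on the EPF arrays, 3446, 3992, 3030, 2947 and 3356 in CK-19-positive nodules, 3387, 3515, 3111, 2703 and 2774 in the CK-19-negative ones and 2855, 3287, 2600, 2464 and 3111 in control liver. It was not called against control, but EPFs lay below every CK-19-positive nodule (-0.39, limma adjusted p = 0.00368).

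The inducible core subunits, which replace the catalytic subunits in the immunoproteasome and are raised by interferon, were called in different directions. Psmb8 read 7542, 6580, 7168, 8155 and 6733 on the EPF arrays, 7964, 8373, 8608, 10363 and 10565 on those of CK-19-positive nodules, 7220, 7036, 7036, 9729 and 8930 on those of CK-19-negative nodules and 10180, 12139, 8731, 12234 and 8995 on the control arrays. It was lower than in control in EPFs (-0.52, limma adjusted p = 0.000984), with no overlap, and in CK-19-negative nodules (-0.39, adjusted p = 0.0343). Psmb9 spread over 916 to 1592 in EPFs, 1504 to 1913 in CK-19-positive nodules, 759.5 to 1947 in CK-19-negative nodules and 773 to 3650 in control liver, and was not called. Psmb10 read 4332, 3829, 4120, 4889 and 4359 across the EPF arrays, 3875, 4450, 5309, 5887 and 6889 in the nodules positive for CK-19, 4037, 2638, 3177, 3937 and 3675 in those negative for it and 3107, 4079, 2433, 4332 and 2526 in control liver. EPFs (0.42, limma adjusted p = 0.037) and CK-19-positive nodules (0.69, adjusted p = 0.00179) exceeded control, each with overlap. The Psmb10 call in EPFs did not pass with chip as a random block (0.43, limma adjusted p = 0.0623). Psmb8 in the CK-19-negative kind did not pass with chip as a fixed block (-0.24, limma adjusted p = 0.455) or within chip 2, and Psmb10 in the CK-19-positive kind did not pass within chip 1 (0.54, adjusted p = 0.0702).

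Of 11 interferon response genes tested, 5 in EPFs, 3 in the CK-19-positive and 1 in the CK-19-negative nodules were called lower than in control. These were 45.5%, 27.3% and 9.09%, beside 27.7%, 22.6% and 7.36% of all genes tested, near that share in both kinds of nodule. Tap2 was higher in CK-19-positive nodules. The light chain B2m alone ran over 35878 to 44883 in EPFs, 41540 to 44883 in CK-19-positive nodules, 35191 to 42071 in the CK-19-negative ones and 23804 to 43418 in control liver, and was not called. The other 13 such genes summed to 4673 to 7231 in EPFs, 6038 to 8280 in CK-19-positive nodules, 5692 to 6973 in the CK-19-negative ones and 6732 to 11611 in control liver, and Isg15 and Ifit1 were under 200 throughout. Of 4 macrophage markers, 3 were lower in EPFs, 1 in the CK-19-positive and 2 in the CK-19-negative nodules, beside the shares of all genes just given. Their summed signals were 3952 to 5438, 6155 to 11075 and 4479 to 6215 in these lesions, against 6428 to 11989 in control liver. No lymphocyte marker was called against control (3 tested), with Cd79b under 200 on all arrays. Fewer cells of a type and less RNA per cell cannot be told apart in these samples, and the part of such cells in the values of Psmb8, Psmb10, Psme1 and Psme2 was not tested.

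**Figure D4:**
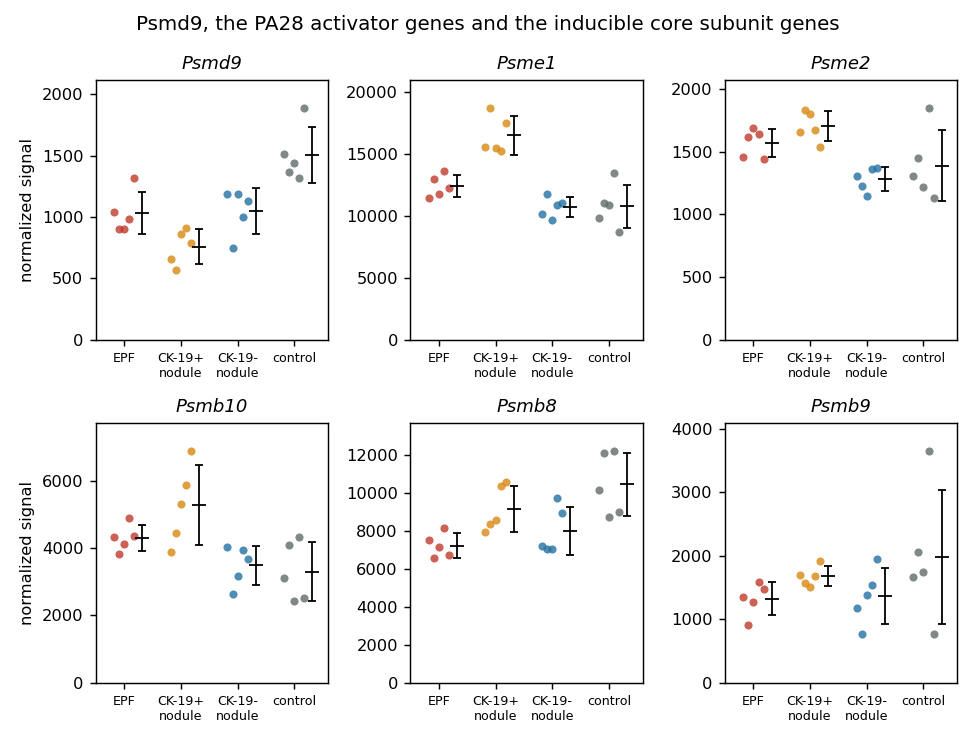
Each point is an array on a linear axis of normalized signal from 0, with the mean and SD (n = 5) beside each group. Psmd9 has its lowest mean in CK-19-positive nodules (569.6 to 909), where Psme1 lies above all other arrays (15232 to 18737), while Psmb8 has its lowest mean in EPFs.

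EPFs were then set directly against each kind of nodule, comparisons that share the EPF arrays. Against CK-19-positive nodules, 14 members were higher in EPFs and 4 lower, with 23.1% and 24% of all genes called, and the median member differed by 0.18. On all arrays 11 members lay above and 3 below, with 18.5% and 18.6% of all genes, and 2.74% and 3.43% of all genes passed 2-fold. Psmc2 (0.84), Psmd12 (0.72), Psma2 (0.66) and Psmd6 (0.62) led, all with adjusted p in limma of 0.00011 or less. Psmd11 (-0.43), Psme1 (-0.41), Psme4 (-0.39) and Psmc3 (-0.31) were lower. The Psmc3 call did not pass under 9 of 20 alternatives, among them chip as a random block (adjusted p = 0.123) and without any one of CK-19-positive nodules 3 to 5 or EPF arrays 2 to 4. Against CK-19-negative nodules, 16 were higher and 3 lower, with 26.7% and 25.7% of all genes called. Here 13 lay above and 2 below on all arrays, with 19.8% and 19.2% of all genes, and 4.13% and 4.79% passed 2-fold. Psma2 (0.86), Psmb5 (0.84), Psmd6 (0.84) and Psmc2 (0.70) led, and Psmc3 (-0.65), Psmd11 (-0.40) and Psme4 (-0.28) were lower.

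Between the nodules, CK-19-positive against CK-19-negative, 3 members were higher and 3 lower, with 15.3% and 13.6% of all genes called and a median of 0.00. On all arrays 2 lay above and none below, with 9.64% and 9.23% of all genes, and 2.39% passed 2-fold in each direction. Psme1, Psme2 and Psmb5 were higher by 0.62, 0.41 and 0.25, and Psmd9, Psmc6 and Psmc3 were lower by -0.47, -0.36 and -0.34 on the log2 scale. With chip as a fixed block only Psme1 remained called, and within chip 1, where a lone CK-19-negative nodule was assumed to vary like the others, none did. With the block 5.98% of all genes were higher and 5.75% lower, and within chip 1 4.11% and 3.61%.

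Of the chaperones that assemble the core, 3 were tested. Psmg2 read 424, 354, 349.9, 373 and 406 on the EPF arrays, 406, 320.1, 310.3, 324 and 322 in CK-19-positive nodules, 334, 296, 307, 312 and 341 in the CK-19-negative ones and 237, 242, 237, 230.4 and 261 in control liver. Every lesion array exceeded every control array, by log2 differences of 0.66 for EPFs, 0.47 for CK-19-positive nodules and 0.40 for the CK-19-negative ones (limma adjusted p at most 0.00303). Of all genes tested, 21.9%, 16.6% and 6.21% lay above control without overlap in these lesions. In CK-19-negative nodules the Psmg2 difference was 0.45 with chip as a fixed block (limma adjusted p = 0.03955). Within chip 2, against the only control there, it was 0.40 and the call did not pass. Psmg1, the partner of Psmg2, was lower in CK-19-positive nodules (-0.35), and Pomp, which completes the maturing core, was called higher in EPFs (0.38, limma adjusted p = 0.0175).

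Genes of proteins that deliver or trim ubiquitin at the proteasome were called in both directions in EPFs. Of 8 tested, 4 were higher and 1 lower than in control, beside 28.3% and 27.7% of all genes tested. Txnl1, a thioredoxin bound to the regulatory particle, rose by 0.95, the deubiquitinases Usp14 and Uchl5 by 0.53 and 0.52, and the shuttle Ubqln1 by 0.53, while the shuttle Ubqln2 fell by 0.47. In CK-19-positive nodules 2 of the 8 were higher and 3 lower than in control, beside 23.4% and 22.6% of all genes tested. Ubqln2 (0.50) and Usp14 (mean 3054 against 2210) were higher there, and Ubqln1 (-0.42), Uchl5 (-0.38) and the ubiquitin receptor Adrm1 (-0.95) were lower. In CK-19-negative nodules Ubqln1 alone was called, lower at 1648 to 2344 against 2407 to 4042 in control. There, 7.36% of all genes tested were called lower. Of 4 ubiquitin and p97 genes tested, Vcp, the p97 ATPase that extracts substrates, was lower in EPFs (-0.62, limma adjusted p = 0.00015), and its cofactor Ufd1 was lower in CK-19-positive nodules (-0.56).

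Of 8 NRF2 target genes tested, 6 were higher in EPFs, 6 in the CK-19-positive and 5 in the CK-19-negative nodules than in control, with median log2 differences of 2.02, 2.70 and 1.18. Among all genes tested, 28.3%, 23.4% and 8.77% were called higher. Hmox1 was called lower in CK-19-negative nodules (-0.72), where 7.36% of all genes tested were lower. In EPFs 4 of the 8 targets were lower than in CK-19-positive nodules, beside 24% of all genes tested. Nfe2l2, the gene of NRF2, was not called against control (0.37, 0.36 and -0.19 in the same order). Keap1 was lower in EPFs (-0.36, limma adjusted p = 0.0311), and Mafg, a partner of NRF2 on DNA, was higher in nodules of both kinds (1.10 in CK-19-positive, 0.55 in CK-19-negative). Mafk and Ngly1 were not called, and Ddi2, Maff and Bach1 were under the signal minimum in every group. Nfe2l1, listed with these regulators, was not matched to a named probe and was not read.

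Proliferation genes were highest in EPFs, where all 6 tested were higher than in control, with a median log2 difference of 2.17, against 5 of 6 in CK-19-positive nodules (0.62) and none in CK-19-negative nodules (0.07). Of all genes tested, 28.3%, 23.4% and 8.77% were called higher than in control in the same order, and 27.7%, 22.6% and 7.36% lower. Biliary and oval cell markers were higher for 4 of 4, 3 of 4 and 2 of 4 tested genes in these lesions. Their summed signal ran over 2353 to 5023 in EPFs, 8081 to 14576 in CK-19-positive nodules, 1210 to 3709 in CK-19-negative nodules and 1085 to 1329 in control liver. Hepatocyte markers summed to 109159 to 132679 in EPFs, 94702 to 110936 in CK-19-positive nodules, 119530 to 131116 in CK-19-negative nodules and 102354 to 147748 in control liver. Of 6 hepatocyte markers, Cps1 (0.86) was higher and Ttr (-0.57) and Hnf4a (-0.36) lower in EPFs than in control, Alb (0.42) was higher and Tat (-1.47) and Fgb (-0.53) lower in CK-19-positive nodules, and none was called in CK-19-negative nodules. Endothelial markers were not matched to a named probe and were not read. Of 4 stellate cell and matrix markers read (Col1a1, Col1a2, Col3a1 and Des), Col1a1 and Col1a2 were higher in EPFs (0.49 and 1.18). These and Col3a1 were higher in CK-19-positive nodules (0.63, 1.66 and 0.98), and Col3a1 in CK-19-negative nodules (0.61). Their summed signal ran over 3007 to 7005 in EPFs, 5061 to 7980 in CK-19-positive nodules, 2663 to 3831 in the CK-19-negative ones and 2053 to 3396 in control liver. The part of these differences in the subunit genes' values was not tested.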

How the data were processed

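The deposited values are intensities, which the authors exported from BeadStudio 3.0.19.0 and quantile-normalized, so that all 20 arrays have the same median (157). They are linear and were not background-corrected to 0, the lowest being 95.5. Of 22523 probes, 13793 had 1 gene symbol in the platform annotation, 8730 had none and none had several. The brightest probe over all arrays stood for its gene. A second table with 40 value columns that match no sample here, and the authors' own comparisons, were not used.

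Signals were taken to log2 without a pseudocount. All 20 arrays entered 1 fit of group means (lmFit and eBayes, limma 3.58.1, R 4.3.3), with Benjamini-Hochberg adjustment over 6102 genes, and 95% intervals for each gene alone. Tables and plots were made in Python 3.11.15 with matplotlib 3.10.9. On simulated data for EPFs against control, 99% of 100 genes changed 2-fold and 78% of 100 genes changed 1.5-fold were recovered among 6102, and 5.35% of calls were false. The simulated noise was independent between genes and arrays, without chip effects or shared rats. In the real comparison 28.3% of genes were called higher and 27.7% lower, far more than were changed in the simulation. These rates therefore need not carry over to the real arrays. The number of arrays, 5 per group, limits the precision. Each array's highest correlation with another was 0.981 to 0.994. Where nothing says that samples of a group came from separate rats, p-values measure the spread between arrays, which may be partly technical.

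Members and lists were chosen with earlier results of these data known. Array values are given for the catalytic and activator genes, the 3 largest log2 differences each way in each comparison with control, and the 3 largest between lesions, and other genes are named where a list called them. Psma6, Psmb1, Psmb4, Psmc1, Psmc5 and Psmd13 are named by their call. The alternatives changed the filter, a pseudocount, background, centring, probe choice, chip, the arrays in the fit, the test and each array left out. Numbers of arrays within a group name them only.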

Additional observations from a re-analysis of the deposited data

Results flagged for a closer look

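In 2 of 76 groups of 5 arrays, over 19 members, an array stood apart from the rest of its group by more than Dixon's 95% limit allows, where chance gives about 1 in 20. Psmb6 read 3040 on EPF array 1 and 2777 to 2826 on the other EPF arrays. Psmc2 read 2506 on CK-19-positive nodule 1 and 2015 to 2139 on the other nodules of its kind.

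Some members were called against control in 1 of 2 lesions and lay on the opposite side of the control mean in the other, without a call there, and also differed directly between the lesions by at least 0.5 on the log2 scale, a size set after the fits were seen. Between EPFs and CK-19-positive nodules these were Psmc2 (0.84; 0.64 and -0.20 from control), Psmd12 (0.72, 0.62 and -0.11) and Psmc5 (0.62, 0.51 and -0.10). Between EPFs and CK-19-negative nodules they were Psma2 (0.86, 0.80 and -0.06), Psmc2 (0.70, 0.64 and -0.07), Psmc5 (0.65, 0.51 and -0.13), Psmd12 (0.63, 0.62 and -0.01) and Psmc3 (-0.65, -0.58 and 0.07). Adjusted p-values in limma for these direct differences were at most 0.000204. The differences of the nodules from control were small and not called in any of these, except that Psmc2 in CK-19-positive nodules was called lower with chip as a fixed block (-0.37, limma adjusted p = 0.024) and without nodule 1 (-0.26, adjusted p = 0.0345). EPFs were alone on their chip, so the chip cannot be told apart from the lesion in them.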

How the results depend on the processing

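Among the 210 results for single genes, no call changed direction under an alternative. No result without a call in the main fit was called on the opposite side under an alternative. Changes of sign that stayed without a call were not counted. Of 4392 values under alternatives, 4222 kept their side of the threshold. In EPFs against control the number of members called higher was 12 to 15 under all alternatives, and 15 of 17 calls held under every one, all except Psma4 and Psmd13. The number lower was 3 to 5 with an array left out, 5 without control 5. In CK-19-positive nodules against control 7 were higher, but 1 with chip as a fixed block and 2 within chip 1, and Psme1 and Psmd9 were the calls that held under every alternative. The number lower was 6 with chip as a fixed block, 4 within chip 1, 1 with a signal over 300 required, 1 by the methods' t-test, and 2 to 4 with an array left out (4 without control 5). The lower call in CK-19-negative nodules was 0 with chip as a fixed block, by the methods' t-test and within chip 2, and 0 to 1 with an array left out (0 without CK-19-negative nodule 2). Between the nodules 3 higher became 1 with chip as a fixed block and 0 within chip 1, and 3 lower became 0, 1 by the methods' t-test and 0 within chip 1, or 0 to 3 with an array left out (0 without CK-19-negative nodule 1, and 1 without CK-19-negative nodule 3 or CK-19-positive nodule 1 or 2). For EPFs, 14 of 18 calls against CK-19-positive nodules (all except Psma4, Psmc3, Psmd5 and Psmd9) and 15 of 19 against CK-19-negative nodules (all except Psma5, Psmc1, Psme2 and Psme4) held under every alternative. The causes were not tested. Raising signals under 200 to 200 was chosen after seeing the data. No paired analysis was possible because the groups share no replicate numbers in the labels. Dim probes (Psma3, Psmc6, Psmd8) lie close to the signal minimum.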
